A study of Mus musculus with 2 samples.

Results

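The 4 members of the mouse Ndrg family, Ndrg1, Ndrg2, Ndrg3 and Ndrg4, were followed through full-length transcript counts of the gastrocnemius, the large calf muscle. The animals were male B6CASTF1/J mice, first-generation offspring of C57BL/6 and CAST parents, at postnatal day 14. One group of 2 libraries, each from 2 µg of total RNA, was sequenced, so the data give levels and splice forms in 1 tissue at 1 age and allow no comparison of conditions. Both libraries carry a biological replicate number but the same donor identifier, and their labels mention several males, so whether each was a pool, or whether they shared animals, is not known, and the spread between them may be technical. The members were taken by gene name among annotated genes, with every class of transcript model, and the family was selected on values of these data, namely the near-equal reads of Ndrg2 models that differ in their first exon. The first-exon shares of Ndrg2, and its place among other genes, are therefore given as a description with no test. The 4 genes are 4 of 14704 annotated genes with a read in either library. They held 85 of 76001 transcript models in replicate 1 and 42 of 49981 in replicate 2.

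NDRG proteins (N-myc downstream-regulated) have the fold of alpha/beta hydrolases but lack the catalytic residues of those enzymes. Ndrg1 is repressed by MYC and MYCN and induced by hypoxia, and its loss damages Schwann cells and peripheral myelin. Ndrg2 is expressed in skeletal muscle and in astrocytes, and its protein, like that of Ndrg1, is a substrate of the kinases SGK1 and AKT. Ndrg3 protein is held down by oxygen-dependent hydroxylation, and Ndrg4 is best known from heart and brain. A gene with more than one first exon can begin its transcripts at separate places, and where the first exons carry no coding sequence the protein is the same and the start of the messenger RNA differs.

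Ndrg2 lies on the minus strand of chromosome 14 (mm10). Its upstream first exon spans 174 bases (chr14:51913924-51914097) and its downstream first exon 108 bases (chr14:51913323-51913430), with 493 bases between them. Both are spliced to the same second exon of 81 bases (chr14:51911466-51911546). That second exon holds the annotated start codon (51911538 to 51911540) of Ndrg2-201 and Ndrg2-202. Both of these begin with the downstream first exon, which is therefore noncoding in them. The models that join the upstream first exon to the full chain are unannotated, and whether that exon holds coding sequence was not examined. RefSeq places a start at 51914004, inside the upstream first exon, another at 51913488, where the annotated transcript Ndrg2-202 begins, and one more at 51913329, inside the downstream first exon. The windows of 250 bases before and 50 bases after the first 2 of these starts (RefSeq, GRCm38.p6, minus strand, chr14:51913955-51914254 and chr14:51913439-51913738) are shown. Capitals mark matches to the MEF2 consensus and to CCGCCC on either strand (written GGGCGG where it matches the opposite strand). The second window, labelled downstream start, is that of 51913488 and lies upstream of the 108-base exon without covering it. Ndrg2-202, which begins at 51913488, had 31 reads in replicate 1 and 13 in replicate 2. Ndrg2-201, which begins at 51913430, had 833 and 386. These transcripts also differ in a 42-base internal exon, which Ndrg2-201 holds and Ndrg2-202 lacks. Their counts equal those of the downstream reads with the full chain and with the chain that lacks only this exon. Nearly all models carry an annotated start, so the counts do not show which of these starts was used.
Ndrg2 upstream start: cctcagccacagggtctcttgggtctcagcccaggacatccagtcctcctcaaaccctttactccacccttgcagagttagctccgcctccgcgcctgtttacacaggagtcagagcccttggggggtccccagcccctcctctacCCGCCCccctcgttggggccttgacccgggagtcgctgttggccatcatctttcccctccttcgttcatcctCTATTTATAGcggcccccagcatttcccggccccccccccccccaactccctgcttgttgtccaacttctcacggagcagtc
Ndrg2 downstream start: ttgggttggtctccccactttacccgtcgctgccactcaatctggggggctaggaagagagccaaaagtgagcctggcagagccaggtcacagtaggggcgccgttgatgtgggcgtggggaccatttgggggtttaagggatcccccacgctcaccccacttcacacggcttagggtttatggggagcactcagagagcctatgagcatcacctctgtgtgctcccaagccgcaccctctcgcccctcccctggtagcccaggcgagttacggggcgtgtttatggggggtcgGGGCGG

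The upstream window held 1 match to the MEF2 consensus, beginning 32 bases before the start, and the downstream windows at 51913488 and 51913329 held none. The match lies inside the upstream first exon as the models draw it, since they extend that exon beyond the RefSeq start. Of 32851 RefSeq windows of the same length, 3.19% held such a match, so it is uncommon but not particular to Ndrg2. A TATAAA match on the opposite strand lay within the same bases of the upstream window, a motif found in 13.6% of all windows. CCGCCC occurred once in the upstream window and once in that of 51913488, against 4 times in the window of 51913329, which overlaps it, and was found in 35.7% of all windows. CANNTG occurred once in each downstream window and not in the upstream one, and was found in 72.3% of all windows. ACGTG (19.6% of all windows), CATTCC (14.7%) and the CArG box (1.63%) had no match in the 3 Ndrg2 windows. These matches are letters in a window and say nothing of a bound factor. G and C made up 62.3% of the upstream window, 62.3% of that at 51913488 and 67.7% of that at 51913329, against a median of 52.7% over all windows.

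The other sequences that vary among Ndrg transcripts are short coding exons, shown on the transcribed strand with the exon in capitals and 15 bases of each neighbouring exon in lower case. The 42-base exon 3 of Ndrg2 (chr14:51911086-51911127) is 14 codons long and begins between codons. The 39-base exons of Ndrg3 (chr2:156929932-156929970) and Ndrg4 (chr8:95712325-95712363) are 13 codons long and sit at the same place, between the last 52-base exon and the terminal exon.
Ndrg2 exon 3: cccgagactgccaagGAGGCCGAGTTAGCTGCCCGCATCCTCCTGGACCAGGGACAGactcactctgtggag
Ndrg3 exon 16: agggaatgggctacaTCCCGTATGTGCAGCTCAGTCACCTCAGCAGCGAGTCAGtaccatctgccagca
Ndrg4 exon 14: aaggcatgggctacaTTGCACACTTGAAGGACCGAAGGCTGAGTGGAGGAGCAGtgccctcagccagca
The annotated coding sequence of Ndrg2-201, with the exon, has 371 codons, and that of Ndrg2-202, without it, 357. The 39-base exons of Ndrg3 and Ndrg4 matched each other at 18 of 39 bases (46.2%).

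Ndrg2 dominated the family. It had 2046 reads, or 1869 CPM (the gene's reads in every 1000000 library reads, spike-in RNAs excluded), in replicate 1 and 1089 reads, or 1739 CPM, in replicate 2. Its mean of 1804 ± 92.2 CPM (SD, n = 2) ranked it number 45 of 14704 genes. The neighbours in that order were Tmem38a, a potassium channel of the sarcoplasmic reticulum (1833 ± 366 CPM), the imprinted RNA H19 (1833 ± 435 CPM), the fast troponin T gene Tnnt3 (1798 ± 569 CPM) and Hrc, a calcium-binding protein of the reticulum (1777 ± 1540 CPM). Ndrg2 differed from each of these by less than its own spread between the libraries, so the order among them is not resolved.

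Ndrg3 was the next member, with 36 reads (32.9 CPM) in replicate 1 and 22 reads (35.1 CPM) in replicate 2, a mean of 34.0 ± 1.58 CPM. Ndrg1 had 15 reads (13.7 CPM) and 7 reads (11.2 CPM), a mean of 12.4 ± 1.79 CPM. Ndrg4 had 9 reads (8.22 CPM) and 3 reads (4.79 CPM), a mean of 6.51 ± 2.43 CPM. A count of 0 allows up to 3 reads, which are worth 2.74 CPM in replicate 1 and 4.79 CPM in replicate 2, so Ndrg4 sat at that limit in replicate 2. Counting intervals (95%, Poisson) of Ndrg3, 23.0 to 45.5 CPM in replicate 1 and 22.0 to 53.2 CPM in replicate 2, and of Ndrg1, 7.67 to 22.6 CPM and 4.49 to 23.0 CPM, met in replicate 2 and not in replicate 1. Those of Ndrg1 and Ndrg4 overlapped in both libraries, so their order was not detectable at this depth. These intervals cover counting error only, as each is drawn from the count of 1 library and leaves out the spread between libraries. The reads carry no molecular identifiers.

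**Figure D1:**
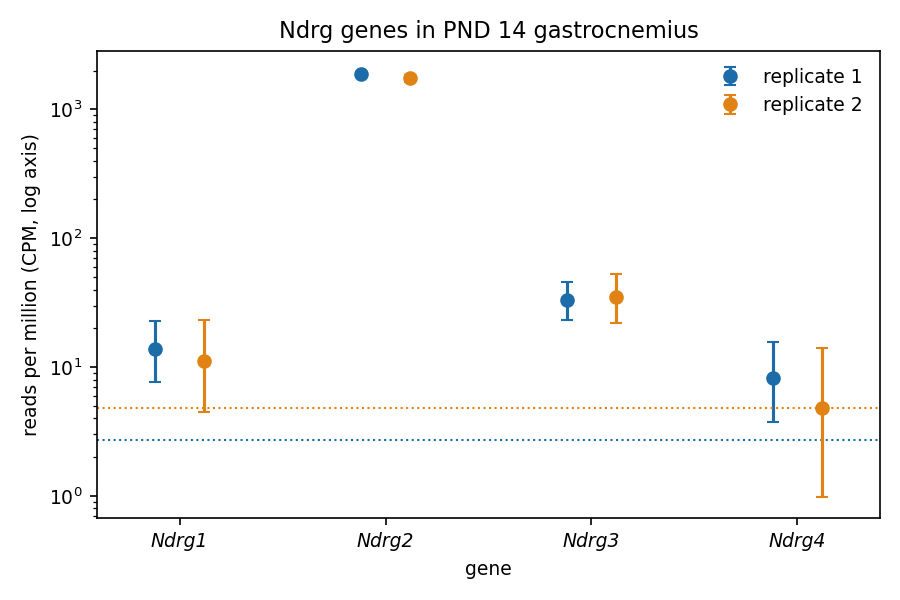
Level of each Ndrg gene in both libraries, in CPM on a log axis. Points are libraries, bars are 95% Poisson intervals of the count and dotted lines mark 3 reads in each library. Ndrg2, at 1869 and 1739 CPM, stands far above Ndrg3, at 32.9 and 35.1 CPM, and Ndrg4 is lowest, at 8.22 and 4.79 CPM, the second of which is 3 reads.

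Of all family reads, Ndrg2 held 97.2% in replicate 1 (2046 of 2106, exact Clopper-Pearson 95% interval 96.3% to 97.8%) and 97.1% in replicate 2 (1089 of 1121, 95.99% to 98.0%). Ndrg3 held 1.71% and 1.96%, Ndrg1 0.712% and 0.624%, and Ndrg4 0.427% and 0.268%. Ndrg2 reads outnumbered those of Ndrg3 by 53.2-fold ± 5.19, those of Ndrg1 by 146-fold ± 13.6 and those of Ndrg4 by 295-fold ± 95.9 (SD, n = 2), each larger than the spread between the libraries. The mean length of complete models, weighted by reads, was 2137 bases for Ndrg2, 2561 for Ndrg3, 2889 for Ndrg1 and 2854 for Ndrg4. Per kilobase of that length the levels were 874 and 813 CPM for Ndrg2, 12.8 and 13.7 for Ndrg3, 4.74 and 3.87 for Ndrg1, and 2.88 and 1.68 for Ndrg4, and the order of the members stayed as it was.

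Between the libraries no member passed the test for a difference in total reads. By Fisher's exact test of a gene's reads against the rest of its library (two-sided, adjusted by Benjamini-Hochberg across the 7955 genes that had 10 or more reads), the log2 ratio of replicate 1 over replicate 2 was 0.10 for Ndrg2 (adjusted p = 0.225), -0.10 for Ndrg3 (adjusted p = 0.954), 0.29 for Ndrg1 (adjusted p = 0.964) and 0.78 for Ndrg4 (adjusted p = 0.813). The test called 13.5% of all genes. It compares these libraries and not conditions.

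Each read is placed on a transcript model of a stated class. Known models match an annotated transcript, NIC models join annotated splice sites in a combination that is not annotated, NNC models hold a splice site that is not annotated, ISM models match a part of an annotated transcript, and Genomic models overlap the gene without its splice chain. Known, NIC and NNC are called complete here. Of the Ndrg2 reads, 864 in replicate 1 and 399 in replicate 2 were Known, 933 and 366 NIC, 35 and 15 NNC, 107 and 45 ISM, and 107 and 264 Genomic. NIC was thus as large as Known, and this is the class that holds the upstream first exon: the annotation has that exon in shorter fragments, and no annotated transcript joins it to the full chain.

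Complete Ndrg2 reads were divided almost evenly between the first exons, which were told apart by their splice donor, so that models with another start and the same donor count together. The upstream exon opened 922 of 1832 reads in replicate 1 (50.3%, Clopper-Pearson 95% interval 48.0% to 52.6%) and 370 of 780 in replicate 2 (47.4%, 43.9% to 51.0%). The downstream exon opened 889 (48.5%, 46.2% to 50.8%) and 407 (52.2%, 48.6% to 55.7%). The upstream exon was ahead by 1.80 percentage points in replicate 1 and behind by 4.74 points in replicate 2, and within each library the intervals of the exons overlapped. The means were 48.9% ± 2.04 for the upstream and 50.4% ± 2.58 for the downstream exon (SD, n = 2).

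Beside these, 13 first exons of Ndrg2 together held 21 reads (1.15%) in replicate 1 and 3 reads (0.385%) in replicate 2, and the most read of them had 6. A 136-base first exon farther upstream (chr14:51914324-51914459) opened 3 reads in replicate 1 and 0 of 780 in replicate 2.

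**Figure D2:**
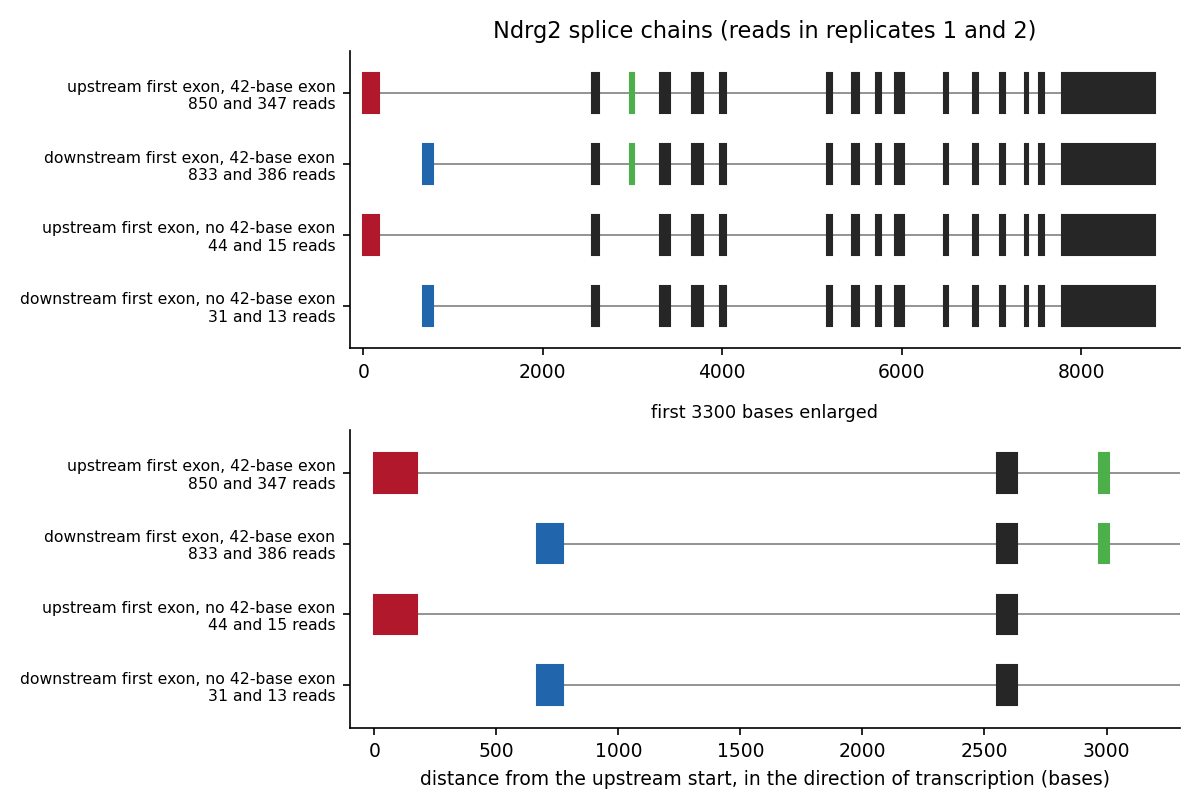
The 4 leading Ndrg2 splice chains drawn to scale against the distance in bases from the upstream start, with the first 3300 bases enlarged in the lower panel. Red and blue boxes are the upstream and downstream first exons, green the 42-base exon and black the other exons, and labels give reads in replicates 1 and 2. All tracks are drawn with the outer ends of the leading full-chain models. Ndrg2-202, the downstream model without the 42-base exon, has a first exon of 166 bases and a last exon of 1024 bases, which are not drawn. Both full chains have similar reads (850 and 347 upstream, 833 and 386 downstream) and share every exon but the first.

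Beyond the first exon the transcripts were alike. Of the reads with the upstream exon, 850 of 922 in replicate 1 (92.2%) and 347 of 370 in replicate 2 (93.8%) carried the full chain of 15 further exons. With the downstream exon, 833 of 889 (93.7%) and 386 of 407 (94.8%) did. The chain without the 42-base exon held 44 and 15 reads with the upstream and 31 and 13 with the downstream exon. Leading models were 2165 bases long with the upstream exon (850 and 346 reads, unannotated) and 2099 bases with the downstream exon (Ndrg2-201, 833 and 386 reads).

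Counting all complete reads that span it, the 42-base exon was included in 1742 of 1819 reads in replicate 1 (95.8%, 94.7% to 96.6%) and 751 of 779 in replicate 2 (96.4%, 94.8% to 97.6%), a mean of 96.1% ± 0.452 (SD, n = 2). It was skipped in 45 of 917 reads with the upstream exon (4.91%) and 32 of 886 with the downstream exon (3.61%) in replicate 1. In replicate 2 it was skipped in 15 of 370 (4.05%) and 13 of 406 (3.20%). The upstream exon had more skipping in both libraries, by 1.30 and 0.852 points, which did not pass the test (Fisher's exact test in each library, two-sided, adjusted p = 0.800 and 1 over 4 tests of 2 exons in 2 libraries). A 106-base exon (chr14:51912594-51912699) was included in 5 of 1826 and 1 of 779 reads, 0.274% and 0.128%. It was skipped in 920 of 922 reads with the upstream and 888 of 889 with the downstream exon in replicate 1. In replicate 2 it was skipped in 370 of 370 and 406 of 407. With so few included reads the same Fisher's exact test (adjusted p = 1 in both libraries) could not detect a difference by first exon, and no conclusion is drawn from it.

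**Figure D3:**
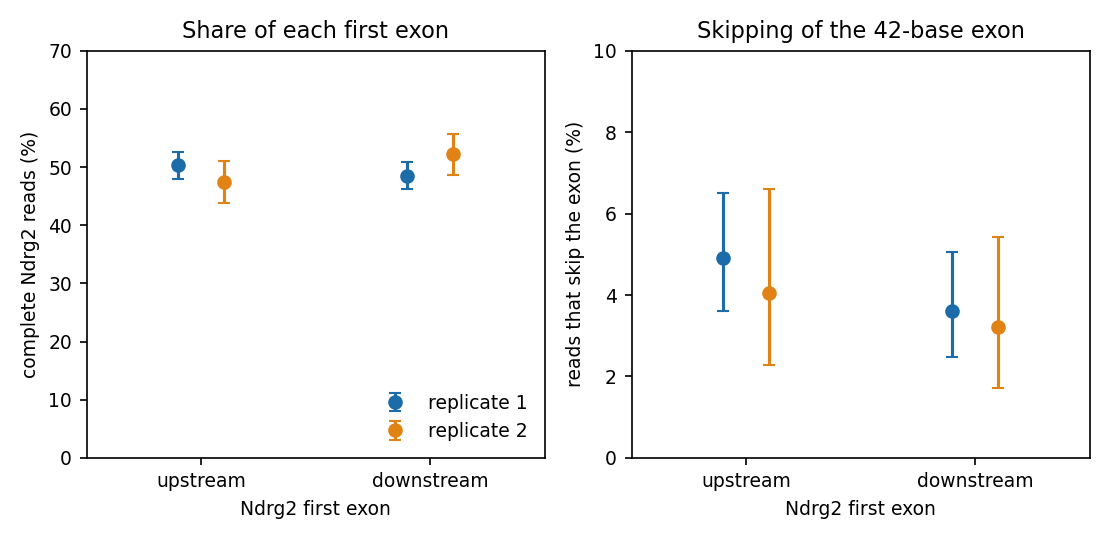
Left, share of each Ndrg2 first exon in complete reads, in percent. Right, percent of spanning reads that skip the 42-base exon, by first exon. Points are libraries and bars are Clopper-Pearson 95% intervals. The intervals of the upstream and downstream exons overlap within each library in both panels, at 47.4% to 52.2% of reads and at 3.20% to 4.91% skipping.

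The other splice sites of Ndrg2 were used with little variation. The end of the 52-base exon 12 (chr14:51907246-51907297) was 3 bases shorter in 8 reads of replicate 1 and 7 of replicate 2 (0.441% and 0.901%) and 4 bases longer in 6 and 2 reads. The 42-base exon lacked its first 3 bases in 2 and 1 reads. Intron 4 (chr14:51910436-51910679, 244 bases) was retained in 20 of 1824 reads of replicate 1 (1.10%, 0.671% to 1.69%) and in 0 of 779 of replicate 2, which allows up to 0.472% (Clopper-Pearson). Among introns 2 to 15, retention of any other reached at most 8 reads in replicate 1, and no complete read of replicate 2 retained one of them. Reads with a retained intron numbered 13 with the upstream and 10 with the downstream first exon in replicate 1.

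Partial spliced reads of Ndrg2 (ISM) do not enter the shares above. Of 107 in replicate 1 and 45 in replicate 2, 60 and 24 had the donor of exon 2 as their first splice site. Most of these, 54 and 21, were placed on a 15-exon model whose start, 51911989, lies in intron 1 upstream of exon 2. A further 45 and 19 first used the donor of one of exons 3 to 15, and 2 in each library used another site. Model starts coincide with annotated transcript starts for 98.7% of spliced Ndrg2 reads in both libraries, so where a transcript starts inside an exon was not measured. Which first exon these partial reads came from cannot be told from them.

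Set against other genes, an even division between first exons was uncommon. Over 491 genes with at least 100 complete spliced reads in each library, the leading first exon held a median of 99.1% of reads. First exons were again keyed by splice donor, so overlapping first exons with different donors counted as separate. Which of the divisions below are of that kind was not examined for the other genes. The second first exon held at least 20% in both libraries in 22 genes (4.48%) and at least 40% in 2 genes, Ndrg2 and Nme2. Nme2, a nucleoside diphosphate kinase, was the gene most like Ndrg2 by the summed absolute difference of the leading and second shares over the 2 libraries, with a leading share of 53.6% in replicate 1 and 57.4% in replicate 2. Next came the tropomodulin Tmod4 (42.5% and 51.1%), the fast-fibre myosin heavy chain gene Myh4 (51.5% and 55.2%), the phosphatase Ptp4a2 (60.4% and 49.6%) and the thymosin Tmsb10 (70.5% and 53.4%). Since Ndrg2 was chosen for this division, its place among the genes is not tested.

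**Figure D4:**
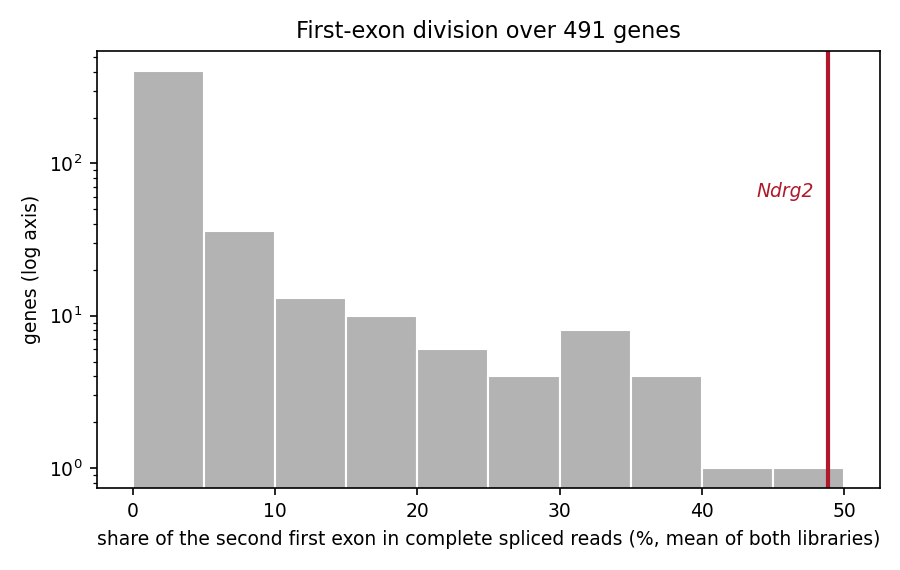
Number of genes (log axis) by the share of the second first exon in complete spliced reads, in percent, averaged over both libraries, for 491 genes in bins of 5 percentage points. The red line marks Ndrg2, at 48.9%, in the last bin.

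The libraries differed in the Genomic class of Ndrg2. It took 107 of 2046 Ndrg2 reads in replicate 1 (5.23%, 4.31% to 6.28%) and 264 of 1089 in replicate 2 (24.2%, 21.7% to 26.9%). The shares differed (Fisher's exact test, two-sided, adjusted p = 2.54e-50 over 1248 genes with at least 50 reads in each library), and 18.3% of those genes did, with Ndrg2 in place 78 by how far replicate 1 lay below replicate 2. Over these genes the median Genomic share was 0.155% in replicate 1 and 0.228% in replicate 2. All Genomic reads of Ndrg2 were placed on 1 single-exon model at the 3′ end of the gene (chr14:51905271-51905283), whose 13 bases run between annotated 3′ ends and do not give the length of the reads.

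With the Genomic class left out, Ndrg2 stood at 1771 CPM in replicate 1 and 1317 CPM in replicate 2, a log2 ratio of 0.43 that passed the test (Fisher's exact test, adjusted p = 1.97e-11 over 7483 genes, an alternative added after the data were seen). The test called 1041 of these 7483 genes. In complete models alone Ndrg2 stood at 1674 and 1245 CPM (adjusted p = 9.78e-11 by the same test), and 878 of 6941 genes were called. Scaled by library reads without spike-ins, replicate 1 was thus higher in spliced Ndrg2 reads and lower in Genomic ones. Over all annotated genes, Genomic reads were 2.34% in replicate 1 and 4.69% in replicate 2, and their part in the Ndrg2 difference was not tested.

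**Figure D5:**
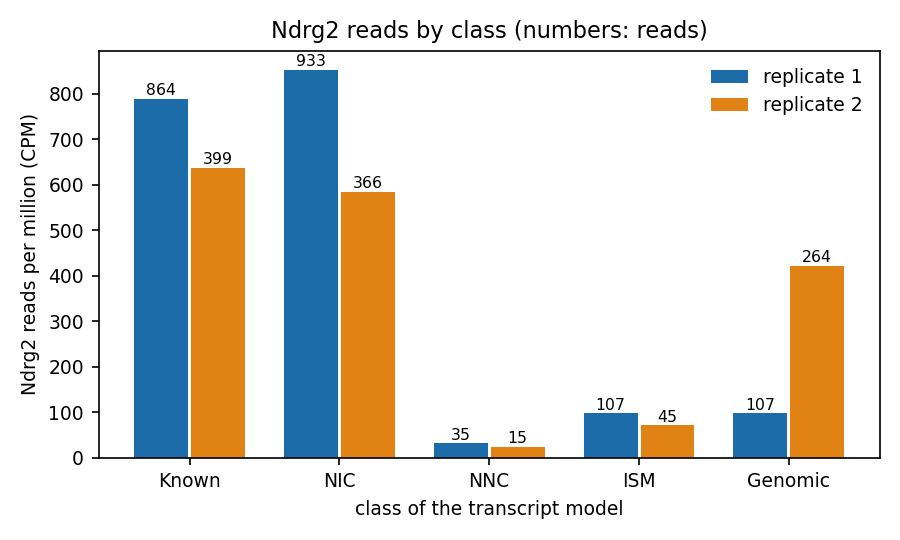
Ndrg2 level (CPM) in each class of transcript model, with the number of reads above each bar. Replicate 1 is higher in the Known, NIC, NNC and ISM classes and replicate 2 in the Genomic class, with 107 and 264 reads.

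Ndrg3 was read from 1 first exon. All 32 complete spliced reads of replicate 1 and all 19 of replicate 2 used the donor of 1 first exon on chromosome 2, which is 58 bases long in the most read model (chr2:156991999-156992056) and starts later in some others, with lower 95% limits of 89.1% and 82.4%. Its variation lay near the other end. Ndrg3-202, without the 39-base exon, had 26 and 11 reads, and Ndrg3-201, with it, had 5 and 7. Over all spanning complete reads the exon was included in 5 of 31 in replicate 1 (16.1%, 5.45% to 33.7%) and 7 of 19 in replicate 2 (36.8%, 16.3% to 61.6%), a mean of 26.5% ± 14.6 (SD, n = 2), and the intervals overlapped.

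Ndrg1 was likewise read from the donor of 1 first exon, of 137 bases in its leading model (chr15:66969504-66969640), in 12 of 12 and 6 of 6 complete reads, with lower limits of 73.5% and 54.1%. Its annotated start codon lies in the second exon. Ndrg1-201 held 11 of its 15 reads in replicate 1 and 4 of 7 in replicate 2, and no internal exon of Ndrg1 was skipped in a complete read. The Genomic class added 3 and 1 reads at its 3′ end.

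Ndrg4 has 11 annotated transcripts, and most of its complete reads began at the exon of the last start that RefSeq lists for it. The donor of a first exon that holds the start codon and spans 141 bases in Ndrg4-202 (chr8:95703037-95703177) was the first used in 6 of 7 complete reads in replicate 1 and 3 of 3 in replicate 2. One read of replicate 1, on an unannotated 16-exon model, began at an exon far upstream (chr8:95677653-95677871). The 39-base exon was included in 3 of 7 reads in replicate 1 and 1 of 3 in replicate 2, in which the intervals run from 9.90% to 81.6% and from 0.840% to 90.6%, so its share is not resolved. The RefSeq window of this start held TATAAA 30 bases before it, which the other 3 Ndrg4 windows and both Ndrg3 windows did not. The upstream window of Ndrg2 held it too, on the opposite strand, 29 bases before its start. Ndrg1 has no entry in the promoter table used.

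The members share an exon plan. In Ndrg1-201, Ndrg2-201, Ndrg3-201 and Ndrg4-202, 11 internal exons had the same lengths in the same order, between exons 4 and 15 of Ndrg2, 787 bases in all. Over these bases Ndrg2 was identical to Ndrg4 at 66.5%, to Ndrg3 at 64.8% and to Ndrg1 at 63.9%, while the other pairs matched at 68.996% to 71.2%. Exon by exon, compared for the pairs with Ndrg2, the last of them, 52 bases long, had the highest identity, at 92.3% with Ndrg4 and 82.7% with Ndrg1 and Ndrg3. Within these 787 bases the longest identical run between any members was 31 bases, and the remaining exons were not searched for such runs. None of the reads on another gene overlapped these loci except 1 read on the opposite strand at Ndrg2 in replicate 2.

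Markers of muscle fibres were the most abundant of the cell type markers examined. The 6 muscle fibre markers (Acta1, Ckm, Myh4, Tnnt3, Atp2a1, Mylpf) summed to 279877 CPM in replicate 1 and 246841 CPM in replicate 2. Schwann cell and myelin markers, of interest for Ndrg1, had reads in both libraries for 7 of 10 genes and summed to 322 and 557 CPM, with Egr2 and Mag at 0 in both. Fibroblast markers (5 of 5 with reads) summed to 6942 and 2743 CPM, endothelial markers (6 of 6) to 386 and 259 CPM and adipocyte markers (2 of 4 in both) to 116 and 246 CPM. Astrocyte and neuron markers, of interest for Ndrg2, had reads for Aqp4, which fast muscle fibres also express, and Aldh1l1, with Gfap, Slc1a2, Snap25 and Rbfox3 at 0, and summed to 35.6 and 22.4 CPM. Cardiac markers, of interest for Ndrg4, summed to 2.74 and 3.19 CPM, with Nppa and Mybpc3 at 0. The part of these cell types in the Ndrg levels was not tested, and in whole tissue fewer cells of a type and less RNA per cell cannot be told apart.

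Of the kinases and kinase complex genes of the NDRG1 and NDRG2 phosphorylation route, 11 of 14 had reads in both libraries, with a median of 22.5 CPM against 6.73 CPM over all genes with a read. Akt1 stood at 155 ± 34.7 CPM and Sgk1, whose kinase phosphorylates NDRG1, at 141 ± 65.8 CPM, an order that is not resolved since Sgk1 was the higher in replicate 1 (187 against 180 CPM for Akt1). Next in the mean were Akt2 at 109 ± 41.1 CPM and Mapkap1, a subunit of the mTORC2 complex that activates SGK1 and AKT, at 47.4 ± 10.5 CPM. Sgk1 had 187 CPM in replicate 1 and 94.2 CPM in replicate 2 and differed between the libraries (Fisher's exact test, adjusted p = 2.33e-05), as did Akt2 at 138 and 79.8 CPM (adjusted p = 0.00666). These were 2 of the 9 genes of the list that could be tested, against 13.5% of all genes.

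Of the MYC and hypoxia regulators known for NDRG genes, 12 of 15 had reads in both libraries and the median was 7.99 CPM. The prolyl hydroxylases Egln2 (254 ± 82.1 CPM) and Egln1 (157 ± 7.08 CPM), enzymes that mark hypoxia-inducible factors for destruction in the presence of oxygen, led the list, followed by Epas1 (46.3 ± 24.9 CPM) and Mxd4, an antagonist of MYC (23.6 ± 4.06 CPM). Myc had 15.5 and 22.4 CPM and Mycn 0 reads in both. Egln2 and Epas1 were the 2 of 10 tested genes that differed between the libraries, both higher in replicate 1, against 13.5% of all genes tested. Of the other genes commonly moved with NDRG1 by hypoxia or iron lack, 7 of 11 had reads in both libraries with a median of 18.1 CPM, and 0 of the 6 tested passed the test for a difference between the libraries, against the same 13.5%. Bnip3, a mitophagy receptor, had 205 ± 34.6 CPM, the transferrin receptor Tfrc 133 ± 19.3 CPM and Vegfa 55.6 ± 22.2 CPM.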

How the data were processed

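Long-read RNA-seq of 2 gastrocnemius libraries was used as 1 count table and 1 transcript annotation per library. The deposited values are whole-number counts of reads on each transcript model; per the descriptions deposited beside them, the authors derived them from filtered alignments to mm10 and the GENCODE M21 annotation, and the file headers name the model classes. Attribute names are those of TALON. The sources used here name no aligner, read correction or version. The libraries held 1141661 and 642362 reads, of which 47054 and 16073 were on ERCC spike-in RNAs and were set aside, leaving 1094607 and 626289 as the scale of CPM. Of these, 98.0% and 96.7% fell in annotated genes.

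Reads were summed by annotated gene over all classes. First exons were keyed by the first splice donor of complete spliced models (Known, NIC, NNC). An exon that lies in an intron of another complete model was counted as included or skipped over spanning reads. Exons with at least 5 reads each way over both libraries together were tested for linkage. With 1 group, levels are mean ± SD (n = 2), shares carry Clopper-Pearson 95% intervals, and tests compare the libraries only, at an adjusted p of 0.05. Depth sets how far the counts reach: a count of 0 allows 3 reads. Named beyond the members are the 2 genes above and below Ndrg2 in level, the 5 most like it in first-exon division and up to 4 of the most abundant genes of each list. The members and gene lists were chosen with earlier results of these data known. Exon sequences came from GENCODE M21 transcripts and promoter windows from RefSeq (GRCm38.p6), which held entries for 3 of the 4 members. Tests were checked on simulated counts. The planned comparison of first-exon shares between the libraries is not reported for Ndrg2, because those shares chose the family. The Genomic-share test, the alternative without Genomic reads and that per kilobase were added after the data were seen. Python 3.11.15 with SciPy 1.17.1, pandas 2.3.3, numpy 2.4.6 and matplotlib 3.10.9 was used throughout, and R 4.3.3 with edgeR 4.0.16 for the TMM factors, 1.07 for replicate 1 and 0.938 for replicate 2.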

Additional observations from a re-analysis of the deposited data

How the results depend on the processing

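Of 122 single values recomputed under alternatives, 91 stayed within the spread between the libraries or on the same side of the threshold. All 9 recomputed counts of genes that differ between the libraries stayed within 1.5 times the main count (778 to 1085 against 1070 for reads, 11 to 17 against 16 for first-exon shares). The number of genes tested changed with the setting, so the share called moved more than the count. For first-exon shares it was 16 of 358 as reported, 16 of 604 with at least 20 reads, 17 of 227 with at least 100 reads and 11 of 228 with annotated models alone. Among the 91 is every value with 1 replicate left out, which with 2 libraries lies within that spread by construction. Levels moved with the classes counted. With annotated models alone, on their own scale, Ndrg2 stood at 1020 CPM and Ndrg3 at 40.8 CPM. With complete models alone, Ndrg1 stood at 10.3, Ndrg2 at 1460 and Ndrg3 at 29.8 CPM, and without the Genomic class at 10.3, 1544 and 31.95 CPM. The share of family reads with annotated models alone was 94.4% for Ndrg2, 3.82% for Ndrg3, 1.07% for Ndrg1 and 0.683% for Ndrg4. Complete models gave 96.9% for Ndrg2 and 2.03% for Ndrg3, and both the count without the Genomic class and that of spliced models gave 96.9% and 2.05%. Per kilobase the shares were 97.7% for Ndrg2, 1.54% for Ndrg3 and 0.497% for Ndrg1.

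First-exon choice in Ndrg2 depended on the classes: with annotated models alone the upstream exon held 0% and the downstream exon 100%, since no annotated model joins the upstream exon to the full chain. With partial models that start at an internal exon kept in the denominator, the shares were 46.2% and 47.6%, and that of the Ndrg3 first exon was 93.2%. Annotated models gave 96.6% for inclusion of the 42-base exon and 0% for the 106-base exon. Linkage could not be tested on annotated models alone, which hold no upstream reads. The log2 ratio of Ndrg2 reads, replicate 1 over replicate 2, passed the test with annotated models alone (0.29, adjusted p = 0.0107 by Fisher's exact test). It also passed with complete models alone (0.43) and without the Genomic class (0.43). With TMM library sizes and all classes it was -0.08 and did not pass. The settings in which it passed were not recomputed with TMM library sizes. The settings in which it passed called 778, 878 and 1041 genes in that order. Depth limits Ndrg1, Ndrg3 and Ndrg4, whose exon shares rest on 3 to 32 complete reads per library.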
